A study of Mus musculus with 16 samples.

Results

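Ribosome biogenesis and nucleolar proteins were followed in RNA of exosomes and of MC/9 cells, a mouse mast cell line, under normal conditions and oxidative stress. The members were 36 named genes, found on the array as probe sets whose single annotated symbol was one of them. Of these, 35 had such a probe set, and Npm3, a nucleophosmin relative, was not analysed here. The 35 genes held 70 of the 45037 probe sets tested and were 35 of 18193 genes with 1 symbol. For each gene the probe set with the highest mean signal over the 16 arrays was used.

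The arrays formed 4 groups of 4. Oxi exo was RNA of exosomes released by MC/9 cultures exposed to 125 µM H2O2 for 24 h, and norm exo was RNA of exosomes released by MC/9 cultures without H2O2. Oxi cell and norm cell were RNA of MC/9 cells of the H2O2 and of the normal condition. All 4 groups came from the same line, grown with serum and Rat T-Stim. GEO's sample descriptions say that the cells had been given H2O2 exosomes or normal exosomes, whereas the study's methods describe cells exposed to H2O2 or vehicle. The study's figure caption for the cell arrays also gives exposure to vehicle or H2O2, and the group names here follow the study. The signals themselves cannot tell these accounts apart. The labels number the replicates without naming their source. The study describes a pair of normal arrays as different cultures, but the source of every replicate of every group is not given in the sources used here, so p-values measure the spread between these samples.

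Ribosomes are built in the nucleolus. RNA polymerase I transcribes the ribosomal RNA precursor there, box C/D and box H/ACA small nucleolar ribonucleoproteins (snoRNPs) guide its methylation and pseudouridylation, and processing factors cut and fold it while the small and large subunits assemble. The transcription factor Myc is known to raise the expression of many of these genes in proliferating cells, partly through the E-box sequence CACGTG.

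Promoter windows of the members were searched for the E-box and, later, for further sequences. RefSeq windows (GRCm38.p6, 250 bases before to 50 after the start) were matched for 29 of the members. On either strand, the E-box CACGTG lay in 6 of these 29 (20.7%), against 17.9% of the 112 other ribosome biogenesis genes with a window and 8.09% of all 27025 genes. The members with it were Mybbp1a, Nol11, Nop2, Pes1, Tsr1 and Utp20. Of the 6 members that rose in cells under H2O2 (below), Ebna1bp2, Nhp2, Nop58, Polr1c and Wdr12 had a window, and 0 of these 5 held CACGTG. A second sequence, CCGGAAG, part of the site that ETS factors bind, was searched after the data had been seen. It lay in 8 of 29 member genes (27.6%), in 47.3% of the other ribosome biogenesis genes and in 9.93% of all genes, and in Ebna1bp2, Nhp2 and Polr1c among the members that rose. TCGCGA, also searched after the data had been seen, lay in 5 of 29 members (17.2%), in 3.57% of the other ribosome biogenesis genes and in 2.86% of all genes, and in Nop58 and Polr1c among the members that rose. The searched sequences do not overlap each other in the stretches printed here, which lie before the start. Capitals mark CCGGAAG in Nhp2 and Polr1c, members that rose, and CACGTG in Nol11 and Nop2, members that were not called, and Nop2 also holds CCGGAAG.
Nhp2, chr11:51619723-51619772, plus strand: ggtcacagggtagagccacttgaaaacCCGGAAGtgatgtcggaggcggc
Polr1c, chr17:46248054-46248114, minus strand: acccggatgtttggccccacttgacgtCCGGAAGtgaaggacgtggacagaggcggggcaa
Nol11, chr11:107189392-107189451, minus strand: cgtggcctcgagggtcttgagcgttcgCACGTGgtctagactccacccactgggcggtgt
Nop2, chr6:125131796-125131855, plus strand: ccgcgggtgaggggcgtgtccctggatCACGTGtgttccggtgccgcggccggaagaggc

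The values were MAS5.0 signals on a linear scale, with each array scaled to a trimmed mean of 100. A background level was taken for each array as the 95th percentile of the signals of 153 probe sets of genes not known to be active in mast cells, such as olfactory receptors and caseins. It averaged 248 ± 16.1 in oxi exo, 225 ± 15.96 in norm exo, 11.2 ± 0.731 in oxi cell and 14.4 ± 1.15 in norm cell (SD, n = 4 each). The spiked control transcripts read 19.6 times higher in oxi exo than in oxi cell and 16.2 times higher in norm exo than in norm cell, and 0.825 times as high in oxi cell as in norm cell. Of 11 mast cell markers, 2 were above background on all arrays in oxi exo, 6 in norm exo and 10 in each cell group. Their summed signal was 1627 to 2431 in oxi exo and 4172 to 6664 in norm exo, and 31939.9 to 38063 in oxi cell and 42427 to 46442 in norm cell, so it did not overlap between the conditions. Of 4 B lymphocyte and 5 fibroblast markers 0 passed this mark in the cells, and of 6 macrophage and neutrophil markers 3 did in oxi cell and 2 in norm cell (sums 108 to 134 and 112 to 118). Of 3 erythroid markers 2, Epor and Klf1, were above background in each cell group, with sums of 201 to 258 in oxi cell and 262 to 299.5 in norm cell, which did not overlap. Of 5 T lymphocyte markers 1, Zap70, was above it in oxi exo, norm exo and oxi cell, and 0 in norm cell. The ratio of the 3′ to the 5′ control probe set of Gapdh, a sign of RNA length, was 1.89 ± 0.373 in oxi exo, 1.64 ± 0.152 in norm exo, 0.851 ± 0.0220 in oxi cell and 0.832 ± 0.00767 in norm cell, and did not overlap between exosomes and cells. The part of these shifts in the results was not tested. In bulk samples, fewer cells of a type and less RNA per cell cannot be told apart.

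Every one of the 35 members was above background on all 4 arrays of oxi cell and of norm cell, where 45.6% and 44.9% of all probe sets were. Few members passed this mark in exosomes. Npm1, Nop10, Nop56, Rrp1 and Mybbp1a did so in oxi exo, and Npm1, Nop10, Rrp1, Tsr1 and Mybbp1a in norm exo, 5 of 35 in each, where 3.10% and 4.92% of all probe sets did. The shares over all probe sets include dimmer probe sets of the same genes. Counted like the members, by the brightest probe set, 9588 of 18193 genes with 1 symbol were above background in a cell group. In an exosome group 1425 of these genes were, and 6 of the 35 members. In oxi exo 27 members, and in norm exo 23, were below background on all 4 arrays. For these, the signal gives an upper limit and no level.

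**Figure D1:**
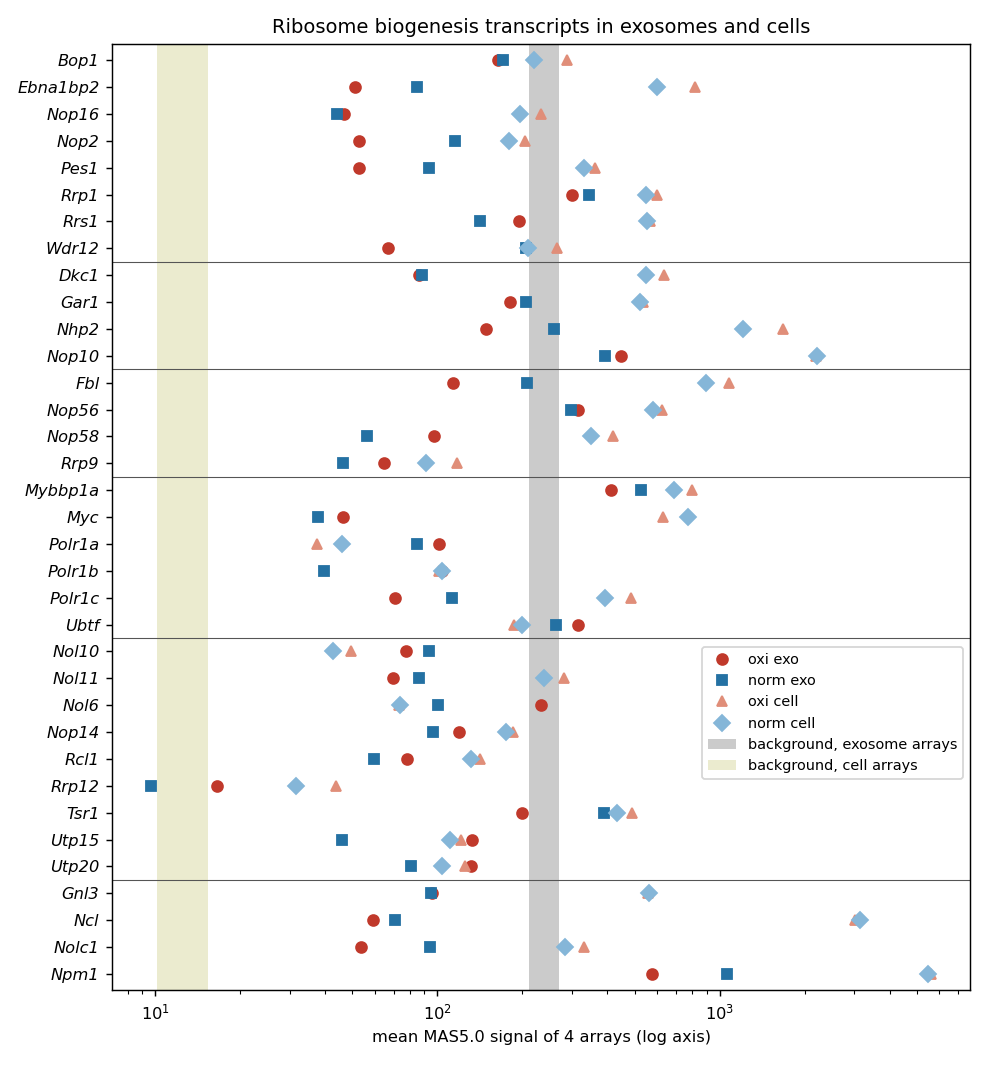
Mean signal of 4 arrays (log axis) of each of 35 ribosome biogenesis genes in oxi exo, norm exo, oxi cell and norm cell. Horizontal lines separate the roles, from the top large subunit assembly, box H/ACA, box C/D, RNA polymerase I, small subunit processing, and scaffolds; shaded bands span the background of the exosome and of the cell arrays, and all cell means lie above the cell band while most exosome means lie left of the exosome band.

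The first comparison asked which members changed in cells under oxidative stress. Oxi cell had higher signals than norm cell for 6 of 35 members (limma with Benjamini-Hochberg adjustment over all probe sets), where 4.31% of all probe sets were higher. None of the 35 members was lower by limma at adjusted p under 0.05, where 5.51% of all probe sets were lower. At unadjusted p under 0.05, 16 were higher and 1 lower, where 8.15% and 14.3% of all probe sets were. The paired test of the methods called 11 higher and 0 lower unadjusted, where 6.71% and 10.8% were, and 0 in either direction after adjustment, where it called 5 of all probe sets. Since all members were above background, the closer yardstick is the 9588 genes above background in a cell group, of which 12.3% were higher and 9.84% lower. The members that rose belonged to the box H/ACA snoRNP (Nhp2), the large subunit (Ebna1bp2, Wdr12, Bop1), RNA polymerase I (Polr1c) and the box C/D snoRNP (Nop58). The changes were small, the largest of them 1.38-fold. The estimate was above 0 for 27 of 35 members, with a median log2 change of 0.16, against -0.15 over all probe sets and -0.02 over the genes above background.

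**Figure D2:**
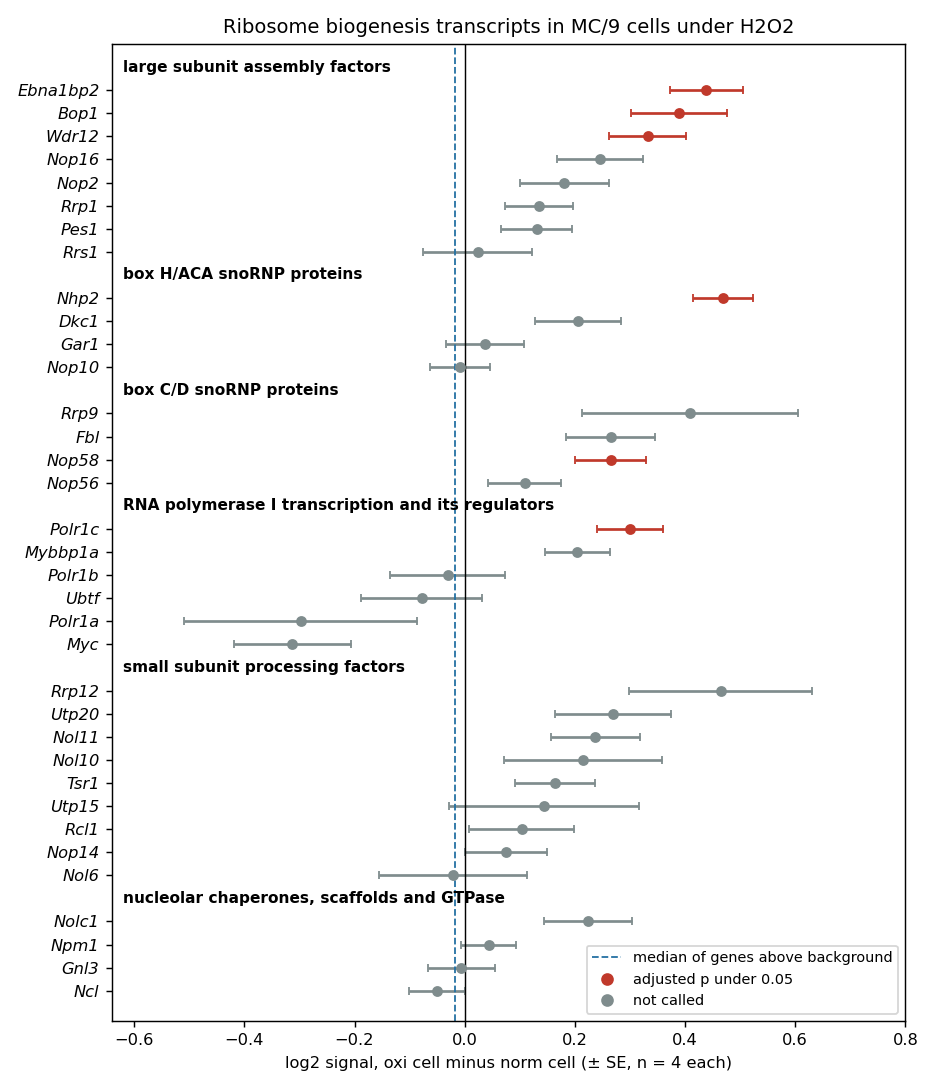
Log2 signal difference, oxi cell minus norm cell, with its SE (n = 4 each), for 35 members grouped by role. Red points are the 6 members called at adjusted p under 0.05, grey points the rest; the dashed line is the median of genes above background in a cell group (-0.02), and 27 of 35 points lie right of 0.

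Among large subunit assembly factors, 3 of 8 rose and 0 fell, and all 8 estimates were above 0 (median 0.21 log2). Ebna1bp2, a nucleolar factor needed for maturation of the large subunit RNA, read 826, 781, 754 and 907 in oxi cell and 599, 566, 642 and 600.1 in norm cell. All oxi cell arrays lay above all norm cell arrays. The log2 change was 0.44 ± 0.07 (SE, limma, adjusted p = 0.0018). Bop1 and Wdr12 are partners of Pes1 in the PeBoW complex, which acts in large subunit RNA processing. Bop1 read 300.1, 302, 264 and 288 in oxi cell and 213, 197, 245 and 227 in norm cell, again without overlap (0.39 ± 0.09, adjusted p = 0.015). Wdr12 read 269, 251, 264 and 274 in oxi cell and 204, 212, 213 and 211 in norm cell, and the groups did not overlap (0.33 ± 0.07, adjusted p = 0.011). A second, dimmer probe set above background on all cell arrays was not called for either gene, with an estimate in the other direction (-0.23 ± 0.19 for Bop1 and -0.11 ± 0.20 for Wdr12, adjusted p = 0.53 and 0.82). Their partner Pes1 averaged 363 ± 25.1 in oxi cell and 331 ± 11.2 in norm cell and was not called (0.13 ± 0.06, adjusted p = 0.26). Nop16 did not overlap between the groups either, at 233 ± 23.7 in oxi cell and 196 ± 7.55 in norm cell, with an adjusted p of 0.073. Nop2, a ribosomal RNA methyltransferase, Rrp1 and Rrs1 had adjusted p of 0.21, 0.23 and 0.93.

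Among box H/ACA proteins, which form the pseudouridylation complex and also belong to telomerase, 1 of 4 rose and 0 fell (median 0.12 log2). Nhp2 read 1679, 1559, 1639.6 and 1823 in oxi cell and 1179, 1122, 1289 and 1252 in norm cell. The lowest oxi cell array was above the highest norm cell array, and the log2 change was 0.47 ± 0.05 (adjusted p = 0.00046). The second Nhp2 probe set behaved alike, at 944 ± 66.1 in oxi cell and 647 ± 22.7 in norm cell (0.54 ± 0.06, adjusted p = 0.00026). It was the single call among the other 35 probe sets of the members. The pseudouridine synthase Dkc1 averaged 634 ± 95.1 in oxi cell and 547 ± 51.7 in norm cell and was not called (adjusted p = 0.14). Gar1 and Nop10, the other two proteins of the complex, differed by 0.04 ± 0.07 and -0.01 ± 0.05 on the log2 scale.

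Among box C/D proteins, 1 of 4 rose and 0 fell (median 0.26 log2). Nop58, a core scaffold of the methylation complex, read 447, 432, 381 and 419 in oxi cell and 362, 347, 305 and 386 in norm cell. The groups overlapped in 1 pair of arrays, and the log2 change was 0.26 ± 0.06 (adjusted p = 0.024). Fbl, the methyltransferase fibrillarin, read 927, 1072, 1150.5 and 1163.5 in oxi cell and 975, 853, 939 and 817 in norm cell. Its estimate was the same size, 0.26 ± 0.08, with an adjusted p of 0.065, and the lowest oxi cell array lay below 2 norm cell arrays. A second Fbl probe set, also above background on all cell arrays, gave a smaller estimate, 0.12 ± 0.06 (adjusted p = 0.30). Nop56, the partner of Nop58, gave 0.11 ± 0.07 (adjusted p = 0.38). Rrp9, a protein specific to the U3 snoRNP, gave 0.41 ± 0.20 (adjusted p = 0.25).

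Among genes of RNA polymerase I transcription, 1 of 6 rose and 0 fell (median -0.05 log2). Polr1c, a subunit shared by RNA polymerases I and III, read 494, 471, 473 and 501 in oxi cell and 388, 407, 388 and 391 in norm cell. The groups were well apart, and the log2 change was 0.30 ± 0.06 (adjusted p = 0.0090). The second Polr1c probe set gave 0.23 ± 0.07 (adjusted p = 0.071). The catalytic subunits were not called. Polr1a averaged 37.5 ± 8.07 in oxi cell and 45.8 ± 7.94 in norm cell, and Polr1b 101 ± 3.85 in oxi cell and 104 ± 12.9 in norm cell (adjusted p = 0.46 and 0.91). A second Polr1a probe set, brighter in cells, pointed the other way, at 84.8 ± 8.23 in oxi cell and 71.8 ± 16.1 in norm cell (0.26 ± 0.16, adjusted p = 0.37). Ubtf, the upstream binding factor of the ribosomal RNA genes, gave -0.08 ± 0.11. Mybbp1a, a nucleolar MYB-binding protein, did not overlap between the groups, at 796 ± 50.9 in oxi cell and 690.1 ± 36.5 in norm cell, with an adjusted p of 0.054. Myc had the lowest estimate of the 35 members. It read 735, 693, 622 and 468 in oxi cell and 714, 779, 779.9 and 812 in norm cell, and 1 oxi cell array lay within the norm cell range. Its log2 difference was -0.31 ± 0.11 (adjusted p = 0.095).

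**Figure D3:**
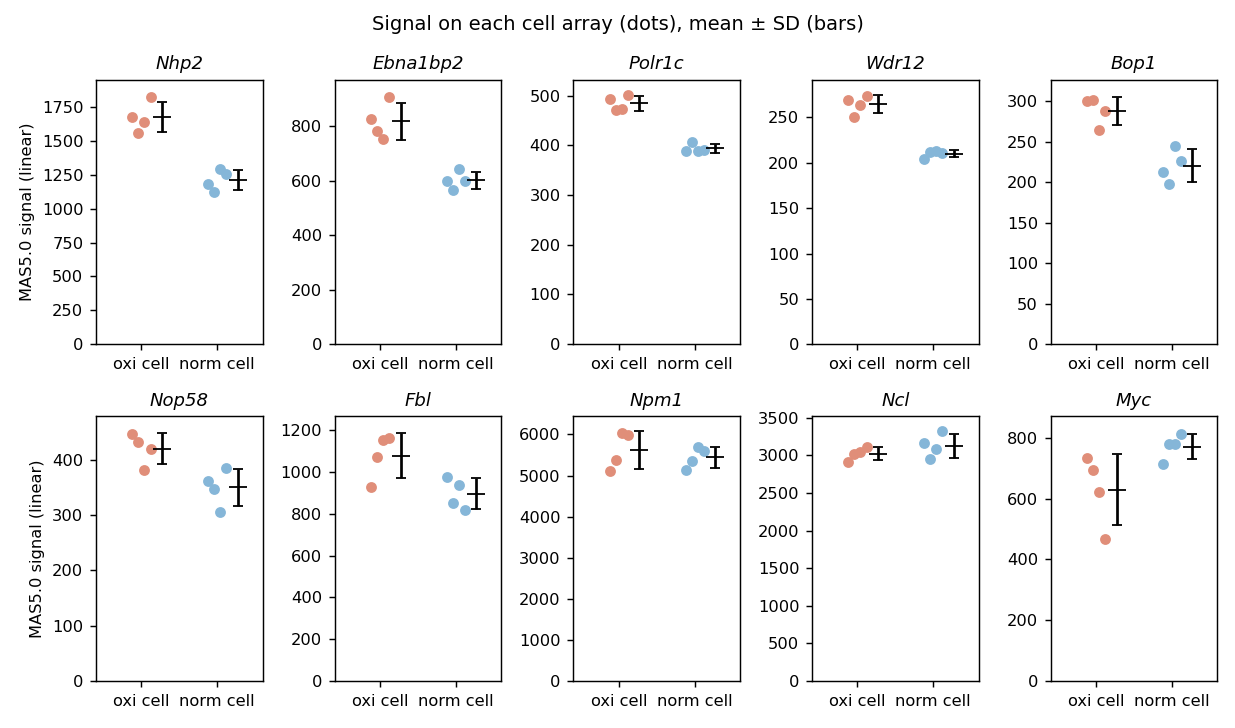
Signal (linear scale from 0) of 10 members on each array of oxi cell (left) and norm cell (right), with mean ± SD. Nhp2, Ebna1bp2, Polr1c, Wdr12 and Bop1 do not overlap between the groups, while Nop58, Fbl, Npm1, Ncl and Myc do.

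Small subunit processing factors gave 0 calls by limma in 9 members, in either direction, with 4 of 9 at unadjusted p under 0.05 and 8 of 9 estimates above 0 (median 0.16 log2). Rrp12, a pre-ribosome export factor, and Utp20, a component of the small subunit processome, did not overlap between the groups. Rrp12 read 41.8, 46.2, 35.7 and 52.0 in oxi cell and 31.2, 35.2, 27.8 and 32.3 in norm cell (0.46 ± 0.17, adjusted p = 0.11), and Utp20 gave 0.27 ± 0.11 (adjusted p = 0.15). Nol11, Tsr1, Nol10, Utp15, Rcl1, Nop14 and Nol6 lay between 0.24 and -0.02 log2. A second Nol6 probe set, above background on all cell arrays, gave -0.54 ± 0.19 (adjusted p = 0.10). Other probe sets of these members lay on both sides of 0, and none was called. The scaffolds and chaperones also gave 0 calls by limma (1 of 4 at unadjusted p under 0.05). Nucleolin, Ncl, averaged 3023 ± 85.2 in oxi cell and 3131 ± 159.6 in norm cell (-0.05 ± 0.05, adjusted p = 0.64), and nucleophosmin, Npm1, 5624 ± 458 in oxi cell and 5448 ± 254 in norm cell (0.04 ± 0.05, adjusted p = 0.68). A dimmer Ncl probe set, above background on all cell arrays, did not overlap between the groups. It averaged 132 ± 10.2 in oxi cell and 165 ± 11.4 in norm cell (-0.32 ± 0.09, adjusted p = 0.053). No Ncl probe set was called. The nucleolar GTPase Gnl3, nucleostemin, gave -0.01 ± 0.06, and the snoRNP chaperone Nolc1 0.22 ± 0.08 (adjusted p = 0.11).

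The wider pathway was given by 134 other ribosome biogenesis genes, all above background in a cell group. In oxi cell 20 of them rose (14.9%), near the 12.3% of all genes above background that rose. The 1 that fell, where 9.84% of genes above background did, was Polr1h (-0.25 ± 0.07, adjusted p = 0.033), a small RNA polymerase I subunit. The median over the 134 was 0.08 log2. Pno1, a factor of small subunit maturation, averaged 313 ± 34.1 in oxi cell and 205 ± 15.4 in norm cell (0.61 ± 0.09, adjusted p = 0.0015), and Lyar, a nucleolar zinc finger protein, 486 ± 27.2 in oxi cell and 344 ± 13.2 in norm cell (0.50 ± 0.06, adjusted p = 0.00073). The ribosomal proteins themselves divided. Of 46 cytosolic ribosomal protein genes 3 rose (6.52%) and 25 fell (54.3%), with a median of -0.23 log2. Of 76 mitochondrial ribosomal protein genes, by contrast, 34 rose (44.7%) and 1 fell (1.32%), with a median of 0.23 log2. Over all genes with 1 symbol, 6.49% rose and 5.36% fell. The 25 cytosolic calls depended on the scaling, with 1 lower and 3 higher after quantile normalization and 0 lower and 5 higher when arrays were scaled to the spiked controls. The mitochondrial genes called higher numbered 29 after quantile normalization. With the spiked controls they numbered 67, where 38.5% of the genes above background in a cell group were higher.

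The calls in cells rested partly on single arrays and on the scale. Nhp2 and Ebna1bp2 passed with any 1 replicate number left out, whereas leaving out replicate 4 left 3 calls, Nhp2, Ebna1bp2 and Nop58, and Myc was lower (adjusted p = 0.038) without replicate 1. Scaling to the spiked controls, which moved the median of all probe sets to 0.13 log2, gave 27 higher members, where 13.7% of all probe sets and 38.5% of the genes above background in a cell group were higher, and put Myc at -0.03.

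The second comparison asked whether the members changed in exosomes under oxidative stress. By limma, 0 of 35 members was higher and 0 lower in oxi exo than in norm exo, where 0.0311% and 1.7% of all probe sets were. Of the 1425 genes above background in an exosome group, 0.0702% were higher and 25.9% lower, with a median of -0.53 log2, and 6 members were among them. A gene can enter this set through norm exo alone, where 4.92% of all probe sets passed against 3.10% in oxi exo. The set therefore favours lower. Over all genes with 1 symbol, 2.27% were lower, with a median of 0.0016 log2. At unadjusted p under 0.05, 2 members were higher and 5 lower, where 3.92% and 5.83% of all probe sets were, and the paired test of the methods gave 1 and 3, where 3.39% and 4.78% were. Of the members, 22 were below background on every array of both groups and carry no order, and the median SE of a log2 change was 0.67, against 0.08 in cells.

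Npm1 had the lowest adjusted p of the members in exosomes. It read 615, 657, 644 and 382 in oxi exo and 1101, 1127, 802 and 1210.1 in norm exo, all above background. Every oxi exo array lay below every norm exo array, and the log2 difference was -0.90 ± 0.24 (adjusted p = 0.075), which passed the threshold without replicate 3 (adjusted p = 0.030). It was -0.65 without replicate 4 (adjusted p = 0.36), -0.31 after quantile normalization (adjusted p = 0.72) and -0.89 with scaling to the spiked controls (adjusted p = 0.22). A second Npm1 probe set, above background on all exosome arrays and brighter there, averaged 895 ± 88.4 in oxi exo and 1248 ± 179 in norm exo. Its groups did not overlap either, but its log2 difference was smaller, -0.47 ± 0.19 (adjusted p = 0.42). Tsr1, a small subunit maturation GTPase-like protein, read 172, 211, 328 and 87.1 in oxi exo, above background on 1 array, and 389.7, 432, 293 and 443 in norm exo, above it on all 4 (-1.10 ± 0.36, adjusted p = 0.23). Adjusting p only over the 2510 probe sets above background in an exosome group, an alternative chosen after the data were seen, gave 0.0050 for Npm1 and 0.021 for Tsr1. Tsr1 entered that set only through norm exo, where its signal was high. Its value there is therefore not independent of the difference tested and lends no support. Wdr12 read 65.9, 27.3, 76.6 and 97.6 in oxi exo, all below background, and 206, 162, 252 and 202 in norm exo, above it on 1 array (adjusted p = 0.10).

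On the probe sets used, the remaining members above background in exosomes overlapped between the conditions. Nop10 read 443, 494, 404 and 453 in oxi exo and 241, 321, 436 and 576 in norm exo, with the norm exo arrays spread more widely. Mybbp1a read 354, 442, 405 and 443 in oxi exo and 633, 583, 485 and 399.5 in norm exo (-0.34 ± 0.25, adjusted p = 0.72). Rrp1 averaged 299 ± 30.0 in oxi exo and 345 ± 26.0 in norm exo, and Nop56 316 ± 48.7 in oxi exo and 297 ± 83.8 in norm exo (adjusted p = 0.86 and 0.94). A second Nop56 probe set averaged 220 ± 29.4 in oxi exo, above background on 1 array, and 306 ± 32.1 in norm exo, above it on all 4. Its groups did not overlap, with an estimate in the other direction that was not called (-0.48 ± 0.30, adjusted p = 0.65). Beyond the members, 2 of the 134 other ribosome biogenesis genes fell in oxi exo (1.49%), Ngdn and Nop53, near the 1.7% of all probe sets that fell. Both were among the 8 of the 134 above background in an exosome group, where 25.9% of all such genes fell, a yardstick with the limit given above. Of 46 cytosolic ribosomal protein genes, 37 of them above background in an exosome group, 34 fell (73.9%), with a median of -1.49 log2. In quantile normalized data 1 of the 134 and 7 of the 46 fell.

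**Figure D4:**
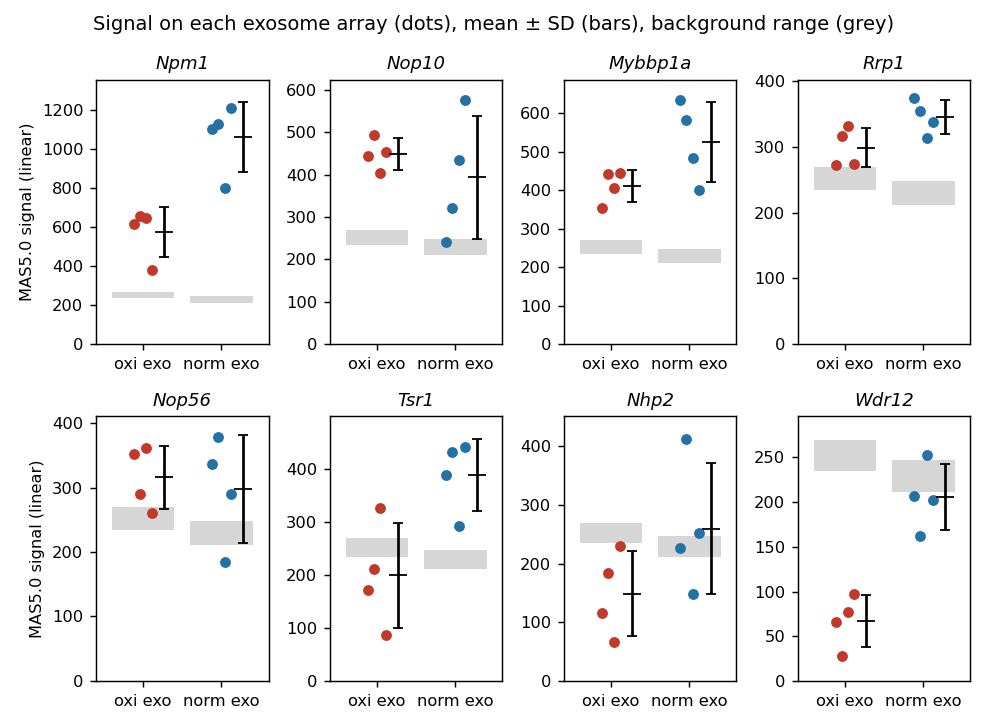
Signal (linear scale from 0) of 8 members on each array of oxi exo (left) and norm exo (right), with mean ± SD and the range of the background of each group in grey. Npm1 lies above the background on all arrays and does not overlap between the groups; Nhp2 and Wdr12 lie below it in oxi exo.

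The change under oxidative stress was also compared between exosomes and cells, through the 8 differences within a replicate number. By limma no probe set passed, so 0% of all were called in either direction and 0 of 35 members, while 0 members had a higher and 3 a lower change in exosomes at unadjusted p under 0.05, where 6.9% and 5.07% of all probe sets did. These 3 were Wdr12, Nhp2 and Fbl (adjusted p = 0.33, 0.33 and 0.38), each below background on every oxi exo array, so no size is given. For Npm1, above background in all 4 groups, the difference was -0.94 ± 0.43 (adjusted p = 0.43).

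The third comparison set exosomes against cells. The arrays were each scaled to the same mean while the exosome arrays read the background and the spiked controls many times higher, so higher and lower are relative to that scale and the exosome background limits what can be seen. Of the 35 members, 27 were lower and 2 higher in oxi exo than in oxi cell, where 19.4% and 60.8% of all probe sets were. Since all members were above background in cells, the closer yardstick is the 9568 genes above background in one of these groups, of which 51.8% were lower and 19.1% higher. In norm exo 24 were lower than in norm cell and 1 was higher, where 19% and 57.7% of all probe sets and 49.6% and 18.6% of the 9368 genes above background were. Some lower calls in both comparisons were of members below background on every exosome array, with cell signals also under that background. Those calls carry no order. All 35 were lower in both comparisons when arrays were scaled to the spiked controls, where 49.1% and 50.5% of all probe sets and 95.4% and 96.8% of the genes above background were.

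Where a member was below background on all 4 exosome arrays, the fold is given as a bound, the mean cell signal over the exosome background (or over the exosome signal where that is higher). A bound above 1 could be given for 16 members in oxi exo, between 1.07 and 12.2, and for 11 in norm exo, between 1.06 and 13.9. None could be given for Rrp9, Nop16, Nop2, Rcl1 and Rrp12, called lower in oxi exo. The same held for Polr1b, Nop16, Nop14, Rcl1, Rrp12 and Utp15, called lower in norm exo. Ncl had the largest bound in oxi exo and in norm exo. It read 5.08, 165, 8.54 and 57.1 in oxi exo and 2908, 3024, 3047 and 3113 in oxi cell, at least 12.2-fold lower in oxi exo (adjusted p = 5.9e-05). In the normal condition it read 110.2, 111, 41.7 and 18.9 in norm exo and 3162, 2949, 3084 and 3331 in norm cell, at least 13.9-fold lower in norm exo (adjusted p = 5.4e-06). Another Ncl probe set gave smaller bounds, 4.26 in oxi exo and 5.04 in norm exo, and the rest of its probe sets gave none. Of that rest, 1 was called higher in oxi exo and in norm exo (adjusted p = 0.00022 and 0.00026), though below background on every exosome array. In oxi exo the bound against oxi cell was 6.75 for Nhp2 and 4.33 for Fbl. For Myc the bound was 2.50 between oxi exo and oxi cell and 3.43 between norm exo and norm cell. Neither of the snoRNP partners Nop58 and Dkc1 was above background in exosomes, and their bounds were 1.69 and 2.54 in oxi exo and 1.55 and 2.43 in norm exo.

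The members above background on all arrays of both kinds of RNA could be compared directly. Npm1 averaged 574 ± 129.6 in oxi exo and 5624 ± 458 in oxi cell, a log2 difference of -3.32 ± 0.23 (adjusted p = 1.5e-05). It averaged 1060.1 ± 178 in norm exo and 5448 ± 254 in norm cell (-2.38 ± 0.16, adjusted p = 4.7e-06). A second Npm1 probe set, also above background on all these arrays, gave smaller differences. They were -1.85 ± 0.20 between oxi exo and oxi cell (adjusted p = 7.5e-05) and -1.36 ± 0.17 between norm exo and norm cell (adjusted p = 0.00010). Nop10 averaged 449 ± 37.0 in oxi exo and 2199 ± 105 in oxi cell (-2.30 ± 0.21, adjusted p = 3.9e-05), and 394 ± 146 in norm exo and 2211 ± 84.6 in norm cell (-2.56 ± 0.22, adjusted p = 1.8e-05). After quantile normalization Npm1 in both conditions and Nop10 in the normal condition stayed lower in exosomes, whereas Nop10 in oxi exo against oxi cell gave -0.30 (adjusted p = 0.30) and was no longer called.

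The rest of this set lay nearer to the cells. Mybbp1a averaged 411 ± 42.0 in oxi exo and 796 ± 50.9 in oxi cell (-0.96 ± 0.23, adjusted p = 0.0039), and 525 ± 104 in norm exo and 690.1 ± 36.5 in norm cell (-0.41 ± 0.21, adjusted p = 0.089). Rrp1 gave -1.01 ± 0.24 (adjusted p = 0.0034) between oxi exo and oxi cell and -0.67 ± 0.20 (adjusted p = 0.013) between norm exo and norm cell. Nop56 gave -1.0 ± 0.24 (adjusted p = 0.0042) between oxi exo and oxi cell. A second Nop56 probe set, above background on 1 oxi exo array, gave -0.72 ± 0.26 there (adjusted p = 0.030). Above background on all arrays of norm exo and norm cell, that probe set was not called between them (-0.17 ± 0.22, adjusted p = 0.50). Tsr1 averaged 389 ± 68.1 in norm exo and 433 ± 7.63 in norm cell (-0.17 ± 0.22, adjusted p = 0.48). The directions of Mybbp1a, Rrp1, Nop56 in the stress condition and Tsr1 in the normal condition flipped after quantile normalization.

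The higher calls among the probe sets used were made on signals at or near the exosome background. They were Nol6, a small subunit processome protein, and Ubtf in oxi exo, and Nol10 in norm exo. Nol6 read 302, 159, 151 and 322 in oxi exo, above background on 2 arrays, and 60.3, 67.1, 76.4 and 88.8 in oxi cell (adjusted p = 0.0022). Ubtf read 233, 313, 262 and 452 in oxi exo, above background on 2 arrays, and 187, 182, 169 and 207 in oxi cell (adjusted p = 0.036). The oxi cell signals of both lay below the mean background of oxi exo, so no size is given. Nol10 averaged 93.5 ± 22.9 in norm exo, below background on all 4 arrays, and 42.9 ± 5.01 in norm cell, so its signals carry no order. None of Nol6, Ubtf and Nol10 was higher after scaling to the spiked controls. Among the other 35 probe sets of the members, 8 were called higher and 17 lower in oxi exo than in oxi cell. In norm exo 6 were called higher and 16 lower than in norm cell. The higher ones were of Ncl, Wdr12, Nol11, Ebna1bp2 and Polr1a in both conditions, and of Nop16 and Nol6 in oxi exo. None of them was above background on more than 1 array of an exosome group.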

How the data were processed

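RNA of MC/9 exosomes and cells was hybridised to Affymetrix mouse arrays, 1 per sample. The paper names a smaller array of the same family than the one whose 45101 probe sets were deposited. The authors computed the deposited signal intensities, which are linear, in MAS5.0 (GCOS 1.2 per the submitters' processing notes), and every array has a mean of 100 once 2% is trimmed from each end. Detection calls were not used here, and no genome build is given in the sources used here. The deposited table gives no probe brightness or counts, and the number of arrays limits the precision.

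The 64 control probe sets were left out. Of the others, 34945 carried 1 gene symbol, 932 several and 9160 none, by GEO's platform annotation. Log2 signals were fitted in limma 3.58.1 (R 4.3.3; lmFit, eBayes with a trend) over the groups compared, with a block for replicate number, following the paired test in the study's methods. Benjamini-Hochberg adjustment ran across every tested probe set (threshold 0.05). All adjusted p are from limma. The deviations of arrays with the same number correlated between -0.016 and 0.022 over probe sets, so the numbers are not shown by the data to pair the samples. Scripts were tested on simulated data. Background per array came from 153 probe sets (132 genes), at their 95th percentile. Its list was corrected after the files were seen, because a symbol pattern for caseins had taken in casein kinases.

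Tried as alternatives were fits without the block, quantile normalization, scaling to 9 spiked probe sets, probe sets above the median, log2 of signal + 100, a floor at background, plain probe sets preferred, the paired test of the methods on linear signals, and leaving out each replicate. Every member is described, with values on each array for all members called under stress and for some that were not called. The members, lists and tests were chosen with earlier results of these data known.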

Additional observations from a re-analysis of the deposited data

Results flagged for a closer look

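In 80 groups of 4 values looked at (35 members in both cell groups and those above background in exosomes), 2 held a value set apart from the other three, or 2.5%, where chance gives about 1 in 20. Npm1 was lowest at 382 in replicate 4 of oxi exo, with the nearest array at 615. Without replicate 4 its log2 difference between oxi exo and norm exo was -0.65 (adjusted p = 0.36, limma). Polr1c was highest at 407 in replicate 2 of norm cell, with the nearest array at 391, a small gap in a narrow group, and its log2 difference between oxi cell and norm cell was 0.33 (adjusted p = 0.026) without replicate 2.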

How the results depend on the processing

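The counts of members called moved with the scaling and with the handling of dim probe sets. For oxi cell against norm cell (6 higher, 0 lower), the count higher was 27 with scaling to the spiked controls, 11 with a floor at background, 0 with the paired test of the methods and 10 with p adjusted over probe sets above background, where 1 was lower; leaving out 1 replicate gave 3 to 8 higher and 0 to 1 lower. For oxi exo against norm exo (0 and 0), the count lower was 1 among probe sets above the median, 1 with log2 of signal + 100, 4 with a floor at background and 2 with p adjusted over probe sets above background, and 0 to 2 with 1 replicate left out; the count higher was 26 with the floor and 0 to 1 with 1 replicate left out. The floor sets dim members to the array's background, so those counts follow the background itself. Of all 45037 probe sets, the floor called 39519 higher and 1448 lower in oxi exo. In oxi cell the floor called 3154 higher. With 1 replicate left out, 8 to 20 were higher and 484 to 802 lower in oxi exo, and 1130 to 1672 higher and 1363 to 2045 lower in oxi cell. Log2 of signal + 100 gave 1000 lower in oxi exo. Tsr1, among the 2 lower with p adjusted over probe sets above background, carries the limit given above. Members higher in norm exo than in norm cell numbered 2 after quantile normalization, 0 with the spiked controls, 13 with the floor, 0 with the paired test of the methods and 0 to 1 with 1 replicate left out. Lower members (24) numbered 23, 35 and 18 in the first 3 of these and 21 to 25 with 1 replicate left out. Of all probe sets, 8352, 1363, 38322 and 7794 were higher in the first 4 of these, and 23641 to 24115 with 1 replicate left out. Those lower numbered 9974, 22723 and 5233 in the first 3, and 7813 to 7965 with 1 replicate left out. Members higher in oxi exo than in oxi cell numbered 1, 0, 12, 0 and 1 to 2 in the same order of settings. Lower members (27) numbered 19, 35 and 20 in the first 3 and 23 to 24 with 1 replicate left out. Here 9318, 1988, 38661, 9710 and 25747 to 26039 of all probe sets were higher. Those lower numbered 10682, 22131 and 5117 in the first 3, and 8070 to 8171 with 1 replicate left out. Without the replicate block, 8 members were higher in oxi cell, where 2133 of all probe sets were. Without it 1 member had a lower change in exosomes than in cells, where log2 of signal + 100 gave 2 and the floor 10, with 3 higher. Of all probe sets, 764, 834 and 2385 had a lower change in these 3 settings, and the floor called 29614 higher. The sign turned in cells with the spiked controls for Ncl (0.23), Nop10 (0.27) and Gnl3 (0.27). After quantile normalization it turned for Rrp1 (0.39), Tsr1 (0.84) and Mybbp1a (0.86) in norm exo against norm cell, and for Nop56 (0.25), Rrp1 (0.18) and Mybbp1a (0.66) in oxi exo against oxi cell. Of 880 alternative values of 78 single member results, 796 kept direction and side of the threshold, 25 lost and 50 gained a call, and 9 reversed.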

Other observations

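The array carries control probe sets for ribosomal RNA itself, outside the comparisons made for the members. The middle probe set for the 18S ribosomal RNA averaged 8348 ± 3122 in oxi exo, 10980.2 ± 1103 in norm exo, 73.3 ± 6.77 in oxi cell and 87.0 ± 17.4 in norm cell (SD, n = 4 each). Its mean was 114 times as high in oxi exo as in oxi cell and 126 times as high in norm exo as in norm cell. The other 18S probe sets gave smaller ratios, 15.6 and 17.8 times for the 3′ set and 29.2 and 25.4 times for the 5′ set in the same pairs. The spiked controls, beside it, read 19.6 and 16.2 times higher in these pairs. The part of labelling and of background in these values was not tested.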
